A study of Mus musculus with 24 samples.

Results

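The genes described here encode the nuclear subunits of oxidative phosphorylation, the mitochondrial machinery that passes electrons from nutrients to oxygen and makes ATP. They were chosen by mouse symbol: the Ndufa, Ndufb, Ndufc, Ndufs and Ndufv genes, Sdha to Sdhd, and the genes starting Uqcr, Cox4i, Cox5, Cox6, Cox7, Cox8 or Atp5, without the Ndufaf assembly factors and without pseudogenes. This rule found 85 of the 20555 genes in each expression table, 36 of complex I, 4 of complex II, 8 of complex III, 20 of complex IV and 17 of complex V. Ndufa4 and its relative Ndufa4l2 were counted in complex IV, where the NDUFA4 protein sits. RNA sequencing was done on cells sorted from mouse brain slices that had received PBS or 5 µg of exosomes per slice on 2 days in a row. All exosomes carried the green membrane dye PKH67, and they came in 3 kinds that the labels call WT, Knock-out 1 (KO1) and Knock-out 2 (KO2). The labels do not name the deleted gene or the cells that released the exosomes, although the title of the series concerns the protein CEMIP in tumour exosomes. The knockout names belong to the exosomes and not to the sorted cells, so no targeted gene could be checked in these libraries. Endothelial cells were the CD45-, CD31+ cells, and microglia the CD45+ cells that stained low for CD11b and CD49d. The labels call every sample exosome-positive, PBS samples included, so the gate behind the PBS libraries is unclear.

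The endothelial table held 3 PBS libraries, 2 of WT (A and B), 3 of KO1 and 2 of KO2 (B and C). Microglia had 2 PBS libraries (A and B) and 3 each of WT, KO1 and KO2. The other 3 of the 24 labelled samples were not analysed here. Libraries carry the letters A, B and C, whose meaning (animal, slice culture or day) the labels leave out, so p-values measure the spread between these libraries, which may be technical. Values are given as recovered normalised counts, that is, the depth-adjusted read counts that underlie the deposited log2 values, and tests were run on the deposited log2 values themselves. Those log2 scales are compressed at low counts. A value 1 unit above that of an unexpressed gene corresponds to 4980 counts in endothelial cells and to 713 in microglia. Differences in log2 units are therefore not comparable between the cell types, and no test crosses them. Most members lie below that count in endothelial cells, so their log2 differences there are smaller than the log2 ratios of their counts.

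Electrons enter the chain at complex I (NADH dehydrogenase) or complex II (succinate dehydrogenase, which is also a TCA cycle enzyme), pass through complex III (cytochrome bc1) to complex IV (cytochrome c oxidase), and the proton gradient they build drives complex V (ATP synthase). Most subunits are encoded in the nucleus, and a few core subunits in mitochondrial DNA. Several complex IV subunits exist in a general form and in a form restricted to certain tissues, such as COX6A1 and the heart and muscle form COX6A2. Activated macrophages are known to lean on glycolysis and to remodel their respiratory chain, partly through itaconate, the product of the enzyme that Acod1 encodes, which inhibits succinate dehydrogenase.

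The factors NRF1 and GABP (an ETS factor) are known regulators of many respiratory genes. The 250 bases before the start site are shown for Cox6a1, Ndufs8 and Uqcrc1, members that were higher in the same microglia libraries, with matches to the searched motifs in capitals (RefSeq, GRCm38.p6, each read 5′ to 3′ along its own gene). The motifs were GCATGCG for NRF1, CCGGAAG for ETS factors and AAGATGG for YY1, each searched on both strands.
Cox6a1, chr5:115348959-115349208, reverse strand: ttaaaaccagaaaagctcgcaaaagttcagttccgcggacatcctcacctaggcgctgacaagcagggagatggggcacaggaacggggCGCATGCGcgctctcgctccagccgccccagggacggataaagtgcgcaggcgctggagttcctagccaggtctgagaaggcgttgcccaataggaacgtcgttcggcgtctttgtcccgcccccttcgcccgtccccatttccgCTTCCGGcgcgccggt
Ndufs8, chr19:3912775-3913024, reverse strand: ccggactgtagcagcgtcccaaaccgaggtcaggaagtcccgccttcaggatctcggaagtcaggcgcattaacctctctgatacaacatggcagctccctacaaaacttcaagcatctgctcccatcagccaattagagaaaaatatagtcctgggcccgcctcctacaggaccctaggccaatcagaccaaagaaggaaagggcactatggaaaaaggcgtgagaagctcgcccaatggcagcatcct
Uqcrc1, chr9:108936398-108936647, forward strand: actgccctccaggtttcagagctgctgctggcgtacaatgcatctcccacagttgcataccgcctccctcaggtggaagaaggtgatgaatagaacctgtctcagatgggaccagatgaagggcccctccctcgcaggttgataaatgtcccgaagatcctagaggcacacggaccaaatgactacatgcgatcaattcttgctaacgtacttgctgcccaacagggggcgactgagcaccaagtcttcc
The Cox6a1 window held the NRF1 letters on both strands, as an overlapping pair, and the ETS letters on the reverse strand, while none of the 3 motifs was found in the Ndufs8 and Uqcrc1 windows. Of the 85 members, 69 had an entry in this promoter table. The NRF1 letters were found in 9 of these 69 (13%), against 3.43% of all 27025 genes in the table. The ETS letters were found in 12 members (17.4%), against 7.83% of genes, and the YY1 letters in 1 member (1.45%), against 5.18%. The genes in the table include non-coding ones, and a match of letters is a description, not a binding site.

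Total recovered counts were 25662166 to 28046010 per endothelial library and 27159081 to 29676865 per microglia library. All 12 endothelial markers had at least 100 counts in each endothelial library. Of 15 microglial markers, 9 to 12 had at least 100 counts in each microglia library; Csf1r and C1qa were present in all of them, but P2ry12 (at most 7 counts) and Gpr34 (at most 11) were at or near 0. Endothelial libraries differed in other cell types. Summed choroid plexus and ependymal markers were 968 to 7437 in the PBS libraries, 6908 and 23472 in KO1 C and KO2 C, and 204446 to 365174 in the other 5 exosome libraries. Summed microglial markers were 2863 to 4475 in the 3 exosome libraries lettered B and 109 to 1619 in the other endothelial libraries. In microglia libraries summed oligodendrocyte markers were 3211 to 9206, with Mbp at 2591 to 7815, while Cldn11 and Ugt8a were at 0 throughout. Since these are bulk samples, fewer cells of a type and less RNA per cell cannot be told apart.

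The share of normalised counts taken by the 85 genes overlapped between the groups in both cell types. In endothelial cells they made up 0.938%, 1.215% and 0.957% of the normalised counts in PBS A, B and C, 1.11% and 1.28% after WT exosomes (A and B), 1.19%, 1.22% and 1.08% after KO1 exosomes (A, B and C), and 1.08% and 1.203% after KO2 exosomes (B and C). PBS B was higher than 5 of the 7 exosome libraries, so the groups overlapped. In microglia the shares were 1.23% and 1.15% in PBS A and B, 1.09%, 1.03% and 1.25% in WT A, B and C, 1.22%, 1.05% and 1.24% in KO1 A, B and C, and 1.08%, 1.08% and 1.37% in KO2 A, B and C. Here the 3 libraries lettered C lay above all 8 others. Complex V took the largest part of each library, 0.371% to 0.496% of endothelial and 0.36% to 0.461% of microglial counts, and complex II the smallest.

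**Figure D1:**
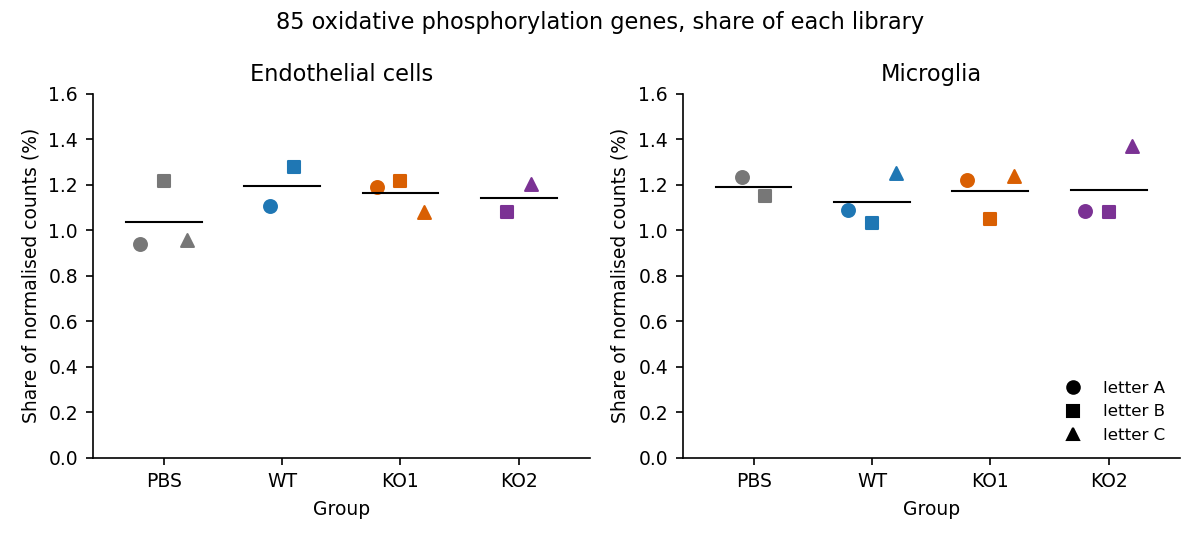
Share of each library's normalised counts (percent, vertical axis) taken by the 85 genes, by group (horizontal axis); each symbol is 1 library, its shape gives the letter, and the line is the group mean. Groups overlap in both cell types, and the 3 microglia libraries lettered C (1.24% to 1.37%) lie above the other 8.

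By counts, not corrected for length, the most abundant transcript of each complex was the same in both cell types for complexes II, III and V. Atp5b, the catalytic beta subunit of ATP synthase, had the highest count of all members: 32348 to 43817 in endothelial libraries, and in microglia 25105 to 32361, with Atp5a1, its alpha partner, next in complex V at 15643 to 24842 and 13357 to 18434. Uqcrc1, a core protein of complex III, led that complex at 4905 to 10947 and 6252 to 9392, and Sdha, the flavoprotein of succinate dehydrogenase, led complex II at 5294 to 8120 and 4096 to 8835. In complex I the highest was Ndufv2, an iron-sulfur subunit, in endothelial cells (2845 to 6206) and Ndufs8, another iron-sulfur subunit, in microglia (2866 to 8095). These ranks use the mean over all libraries, and Ndufs8 had 7011 to 8095 in the microglia libraries lettered C. In complex IV it was Cox6a1 in endothelial cells (6626 to 9566) and Cox4i1 in microglia (9887 to 13781). Per kilobase of transcript in the PBS libraries, Atp5b was again highest in endothelial cells (19060 counts), and Cox6a1 of complex IV (18180) in microglia, where Atp5b came next (16560). The median per kilobase over expressed members was 2288 counts for complex I and 6183 for complex IV in endothelial cells, and 2388 and 6869 in microglia. Complex III stood at 5330 and 5327 per kilobase, complex V at 4366 and 5502, and complex II at 2232 and 3058.

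In each cell type 76 of the 85 members passed the filter of a mean of 200 normalised counts. Most of those that did not are tissue-restricted forms. Cox7b2 and Cox8c, forms of the testis, were at the floor in every library of both cell types, and Cox8b, a muscle form, reached at most 133 counts, in endothelial KO2 B. Cox7a1, the heart and muscle counterpart of Cox7a2, stayed at or below 109 counts against 2959 to 5621 for Cox7a2 over both tables. The general forms Cox4i1, Cox6a1, Cox6b1, Cox7a2, Cox7b and Cox8a were all expressed, as was Cox7a2l, a factor that joins complexes III and IV (572 to 1936). All 3 genes for the identical c-ring protein of ATP synthase were on, with Atp5g3 at 3763 to 7965, Atp5g1 at 2853 to 7459 and Atp5g2 at 1408 to 4298. Ndufa13, an ordinary complex I subunit that every cell uses, was listed at no more than 21 in any endothelial library and 73 in any microglia library, so its listed values may not reflect its expression. Many respiratory genes have near-identical processed pseudogenes, and the sources used here do not say how reads were split among such copies.

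Cox6a2 differed between the tables. In microglia it had 2164 and 1313 for PBS A and B, 747, 353 and 1516 for WT A, B and C, 687, 859 and 1490 for KO1 A, B and C, and 917, 764 and 1748 for KO2 A, B and C. In endothelial cells it was listed at 0 in 9 libraries and at 45 in KO2 B. The general form Cox6a1, whose transcript is of similar length, was higher than Cox6a2 in every microglia library, at 7786 to 11460. The gene lies at chr7:128205435-128206366 (RefSeq, GRCm38.p6).

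Ndufa4l2 and Cox4i2, forms induced by low oxygen and known from pericytes and lung, were seen in endothelial but not in microglia libraries, where both were at the floor throughout. In endothelial cells Ndufa4l2 had 9.4, 21 and 43 for PBS A, B and C, 0 and 229 for WT A and B, 170, 263 and 0 for KO1 A, B and C, and 161 and 0 for KO2 B and C. It was high in WT B, KO2 B and the KO1 libraries A and B, and at 0 in the remaining exosome libraries. Cox4i2 had 17, 15 and 1.8 for PBS A, B and C, 0 and 53 for WT A and B, 0, 59 and 50 for KO1 A, B and C, and 41 and 11 for KO2 B and C. Cox6b2, a form best known from testis, had 35, 32 and 74 for PBS A, B and C, 0 and 321 for WT A and B, 373, 179 and 0 for KO1 A, B and C, and 89 and 178 for KO2 B and C. None of these 3 passed the filter. Summed pericyte and smooth muscle markers were highest in the B libraries of WT (8140), KO1 (7217) and KO2 (6188), against 687 to 4607 elsewhere, with 4005 in KO1 A. The 3 genes followed this order only in part. Cox6b2 was higher in KO1 A than in KO1 B and higher in KO2 C than in KO2 B, and Cox4i2 had 50 in KO1 C, where the marker sum was 687. The part of those marker differences in these values was not tested.

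**Figure D2:**
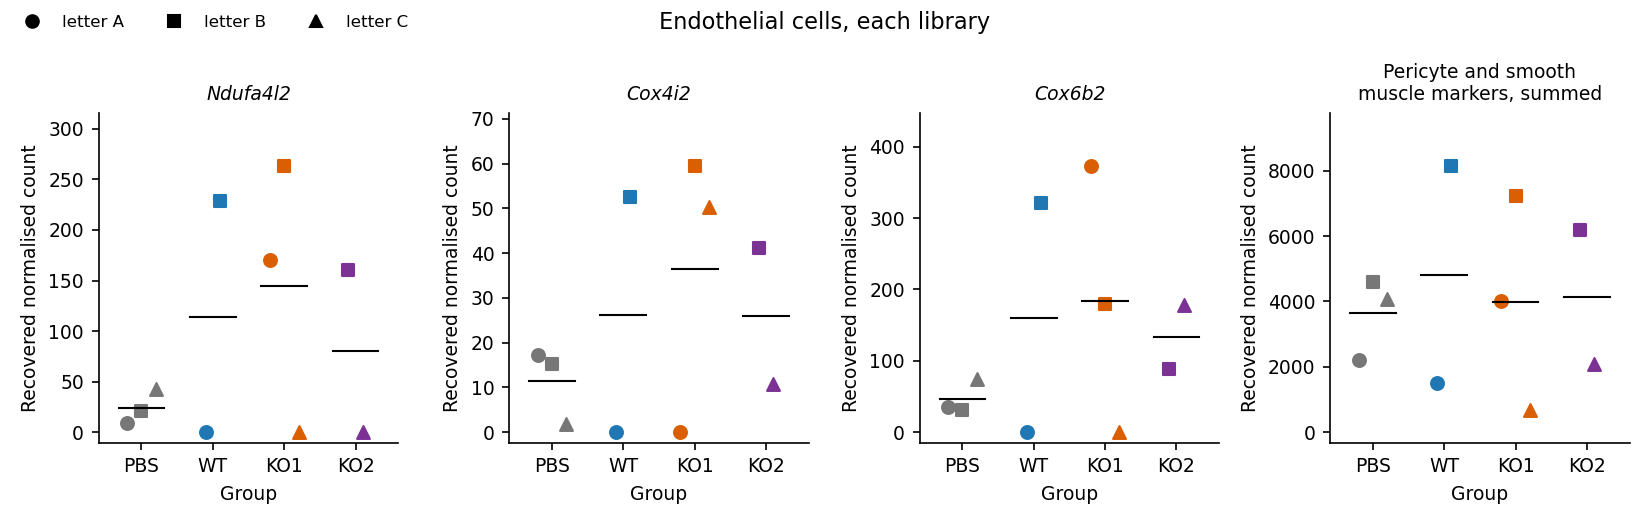
Recovered normalised counts (vertical axes) of Ndufa4l2, Cox4i2 and Cox6b2 and the summed pericyte and smooth muscle markers in each endothelial library, by group; symbols are libraries, shapes give the letter, lines are group means. Ndufa4l2 is at 161 to 263 in WT B, KO2 B and the KO1 libraries A and B, and at most 43 elsewhere, and the marker sum is highest in the 3 exosome libraries lettered B.

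In endothelial cells, WT exosomes were compared with PBS. No member passed the test: 0 of 76 had an adjusted p under 0.05 (limma, Benjamini-Hochberg over 8417 genes), where 0.0119% of all genes did, and 1 of 76 had an unadjusted p under 0.05, against 10.5% of all genes. The point estimates of 59 members were higher with WT exosomes and of 17 lower, with a median of 0.073 log2 units, while 47.7% of all genes were higher and their median was -0.008. By complex, 27 of 35 tested members of complex I, 3 of 4 of complex II, 4 of 8 of complex III, 10 of 12 of complex IV and 15 of 17 of complex V had higher estimates. The size of the median rested partly on WT B: without that library it was 0.038. Fewer genes were detected above the floor in WT A and B (9235 and 10607) than in the PBS libraries (11305 to 11952), and the part of this in the member values was not tested.

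Atp5d, the delta subunit of the ATP synthase rotor, had the smallest p. Its counts were 4643, 5180 and 3576 for PBS A, B and C and 7094 and 6326 for WT A and B. Both WT libraries were above all PBS libraries, and the log2 difference was 0.21 (95% interval 0.02 to 0.40, adjusted p = 0.452). Sdhb, the iron-sulfur subunit of succinate dehydrogenase, had 3347, 4099 and 3643 for PBS A, B and C and 4686 and 6166 for WT A and B, again without overlap, a difference of 0.17 (95% interval -0.01 to 0.35, adjusted p = 0.485). Ndufv2 had 4585, 4612 and 3241 for PBS A, B and C and 5722 and 6206 for WT A and B, a difference of 0.18 (95% interval 0.00 to 0.36, adjusted p = 0.476). Ndufb7, an accessory subunit in the membrane arm of complex I, had 1415, 2216 and 1638 for PBS A, B and C and 3597 and 2257 for WT A and B, a difference of 0.17 (95% interval -0.01 to 0.35, adjusted p = 0.503). Atp5g2, a c-ring gene, had 2455, 2607 and 2440 for PBS A, B and C and 3823 and 4264 for WT A and B, a difference of 0.19 (95% interval -0.04 to 0.41, adjusted p = 0.539). In all 5 genes both WT libraries lay above the 3 PBS libraries, yet every interval but that of Atp5d reached 0 and no adjusted p was below 0.452.

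Among members with lower estimates, Ndufs6, a zinc-binding accessory subunit of complex I, had 1263, 1578 and 1651 for PBS A, B and C and 614 and 1284 for WT A and B, a difference of -0.12 (95% interval -0.29 to 0.05, adjusted p = 0.637). Ndufb2, a small membrane-arm subunit, had 662, 632 and 447 for PBS A, B and C and 260 and 375 for WT A and B, without overlap, at -0.09 (95% interval -0.27 to 0.09, adjusted p = 0.738). Ndufa6 had 2824, 2521 and 2374 for PBS A, B and C and 2291 and 1782 for WT A and B, also without overlap, at -0.08 (95% interval -0.25 to 0.10, adjusted p = 0.763). Uqcrc1 and Uqcr10, of complex III, had lower estimates that rested on WT A, at 4905 for Uqcrc1 and 1130 for Uqcr10, against 10400 and 2789 in WT B. Their differences were -0.13 (95% interval -0.40 to 0.14, adjusted p = 0.755) and -0.10 (95% interval -0.31 to 0.10, adjusted p = 0.743), and both turned positive without WT A.

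Counting members whose WT libraries all lay above all PBS libraries gave 23 of 76, against 17.4% of all genes. These were Ndufa2, Ndufa12, Ndufb3, Ndufb7, Ndufc2, Ndufs4, Ndufv2 and Ndufv3 of complex I, Sdha and Sdhb, Uqcrb and Uqcrq, Cox6a1, Cox6b1, Cox6c, Cox7c and Cox8a, and Atp5c1, Atp5d, Atp5e, Atp5g2, Atp5j2 and Atp5l. The reverse was seen in 2, Ndufa6 and Ndufb2, against 17.8% of all genes. The WT libraries were also those with 207931 and 238660 counts of choroid plexus and ependymal markers against at most 7437 in PBS; the part of those cells in the member values was not tested.

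Knockout exosomes were then compared with WT exosomes in endothelial cells, taking the mean of KO1 and KO2. Again 0 of 76 members passed (0.0238% of all genes did), and 2 had an unadjusted p under 0.05, against 9.41% of all genes. Estimates were higher for 29 members and lower for 47, with a median of -0.022 beside 0.002 for all genes. Without WT B the median was 0.007. Ndufv2 had the smallest p: its counts were 5722 and 6206 for WT A and B, 3909, 3855 and 4426 for KO1 A, B and C, and 3360 and 2845 for KO2 B and C. Every knockout library was below both WT libraries, a difference of -0.24 (95% interval -0.41 to -0.07, adjusted p = 0.384), while the PBS libraries, at 3241 to 4612, overlapped the knockout libraries. Ndufs6 went the other way, with 614 and 1284 for WT A and B, 1721, 2084 and 2294 for KO1 A, B and C, and 1512 and 1500 for KO2 B and C, all 5 knockout libraries above both WT libraries, a difference of 0.17 (95% interval 0.01 to 0.32, adjusted p = 0.52).

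Other members with lower estimates after knockout exosomes were Uqcr11, a small complex III subunit, at -0.15 (95% interval -0.33 to 0.03, adjusted p = 0.6), and Cox7c at -0.12 (95% interval -0.28 to 0.04, adjusted p = 0.634). Uqcrb, which helps hold ubiquinone in complex III, differed by -0.16 (95% interval -0.36 to 0.05, adjusted p = 0.645), and Ndufc1 by -0.11 (95% interval -0.27 to 0.05, adjusted p = 0.665). Higher estimates came from Ndufa1, Sdhd and Uqcr10, and from Atp5b, whose counts were 32348 and 34394 for WT A and B, 36043, 36403 and 41072 for KO1 A, B and C, and 40213 and 43817 for KO2 B and C. Atp5b was above both WT libraries in all 5 knockout libraries, a difference of 0.18 (95% interval -0.05 to 0.40, adjusted p = 0.619). Members with every knockout library above WT were Atp5b and Ndufs6, 2 of 76, against 5.12% of all genes. Those with every knockout library below were Atp5d, Atp5h, Ndufs5, Ndufv2 and Sdha, 5 of 76, against 4.87%.

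Against PBS, knockout exosomes gave estimates higher for 58 members and lower for 18, with a median of 0.035 beside -0.005 for all genes. No member passed (0% of all genes did), and 1 of 76 had an unadjusted p under 0.05, against 5.61% of all genes. The lowest and highest medians on leaving out 1 library were 0.021 without PBS A and 0.064 without PBS B. Ndufb7 had 3106, 3077 and 3033 for KO1 A, B and C and 2167 and 2677 for KO2 B and C against 1415, 2216 and 1638 for PBS A, B and C, a difference of 0.15 (95% interval 0.00 to 0.30, adjusted p = 0.885). Cox7b, a small structural subunit of complex IV, had 1901, 2681 and 3063 for KO1 A, B and C and 3236 and 2912 for KO2 B and C against 1638, 2138 and 1631 for PBS A, B and C, a difference of 0.15 (95% interval -0.01 to 0.30, adjusted p = 0.885). Sdhb had 5578, 4513 and 4636 for KO1 A, B and C and 4946 and 4910 for KO2 B and C, all above the 3 PBS libraries, a difference of 0.13 (95% interval -0.02 to 0.27, adjusted p = 0.885). Sdhb and Atp5k, the e subunit of ATP synthase, were the 2 of 76 members without overlap in this direction, against 2.6% of all genes, and none of the 76 was lower without overlap, against 2.57%. The lowest estimate was that of Uqcrfs1, the Rieske iron-sulfur protein, at -0.11 (95% interval -0.26 to 0.05, adjusted p = 0.926). WT and knockout comparisons with PBS share the same 3 PBS libraries.

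**Figure D3:**
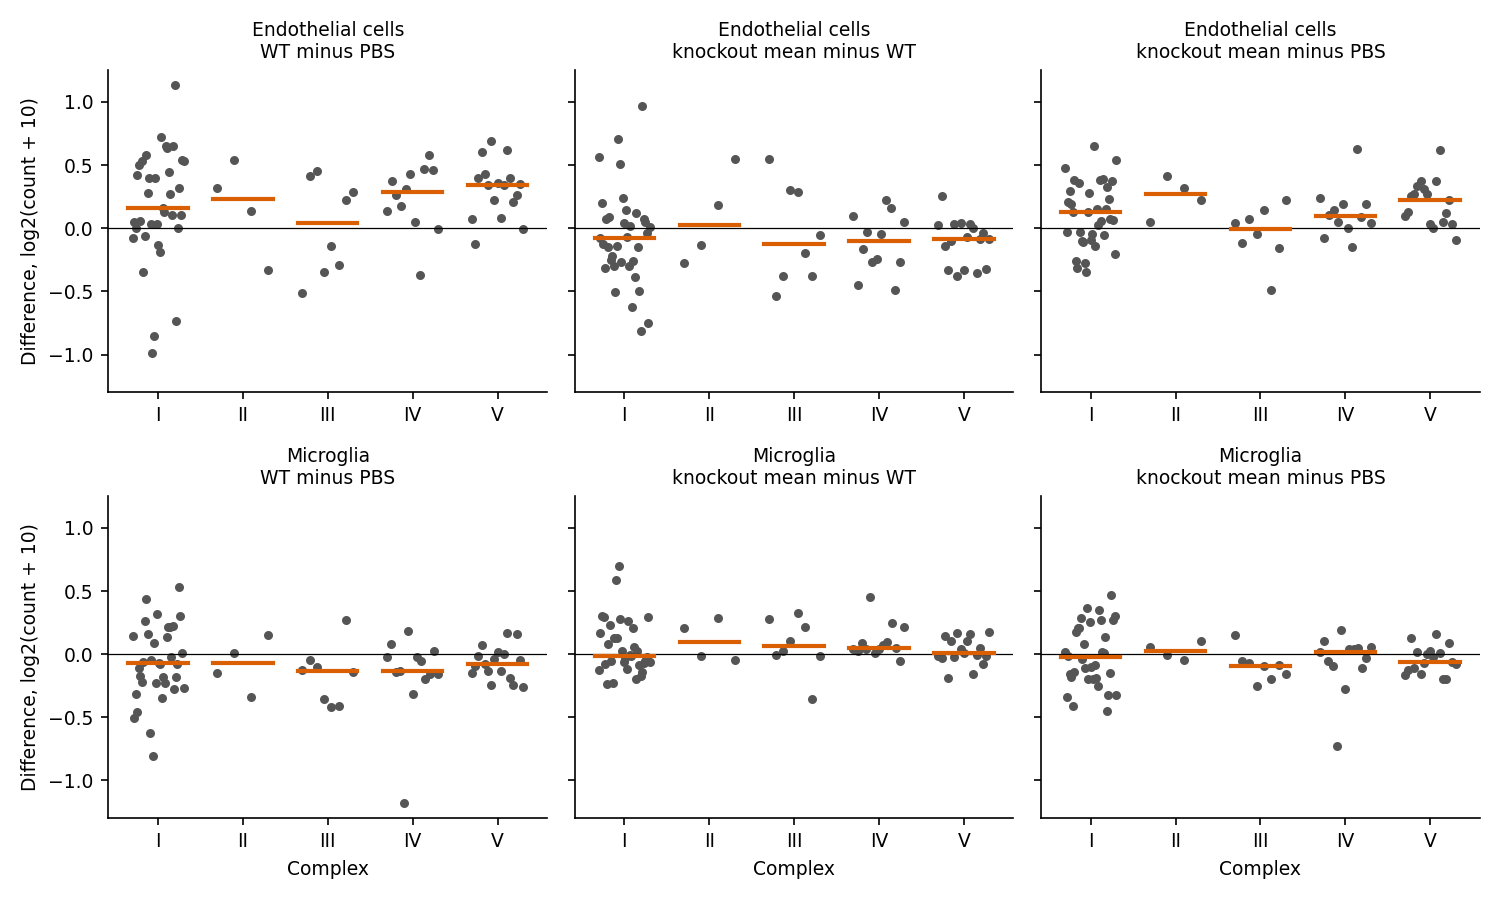
Differences between groups on the log2(recovered count + 10) scale (vertical axes) for each tested member, by complex (horizontal axes), in endothelial cells (top) and microglia (bottom); each point is 1 member and the orange line is the median of its complex. No difference passes the adjusted test; points are mostly above 0 for endothelial WT minus PBS and mostly below 0 for microglia WT minus PBS.

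In microglia, WT exosomes were compared with PBS in the same way. No member passed (0% of 7948 genes did), and 2 of 76 had an unadjusted p under 0.05, against 4.89% of all genes. Estimates were higher for 24 members and lower for 52, with a median of -0.056 beside -0.005 for all genes. Lower estimates came from 21 of 34 tested members of complex I, 2 of 4 of complex II, 7 of 8 of complex III, 10 of 13 of complex IV and 12 of 17 of complex V. Without WT B the median was -0.032 and without WT C it was -0.082. Summed choroid plexus and ependymal markers were 9419 and 694 for PBS A and B, above all 3 WT libraries (51 to 538), and their part in these values was not tested.

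Ndufa10, an accessory subunit of complex I at chr1:92439486-92473825, had the smallest p. Its counts were 4985 and 4964 for PBS A and B and 3000, 3634 and 3927 for WT A, B and C, without overlap, a difference of -0.36 (95% interval -0.63 to -0.08, adjusted p = 0.951). Ndufa12, which sits where the arms of complex I meet, had 5350 and 4901 for PBS A and B and 2970, 4061 and 4287 for WT A, B and C, a difference of -0.32 (95% interval -0.65 to 0.00, adjusted p = 0.951). Both PBS libraries were above all 3 WT libraries in these genes, but neither passed the adjusted test. Cox6a2 differed by -0.39 (95% interval -0.83 to 0.04, adjusted p = 0.951), with WT C at 1516 falling between the PBS libraries. Uqcrc1 had 9284 and 9104 for PBS A and B and 6710, 6252 and 8793 for WT A, B and C, a difference of -0.31 (95% interval -0.70 to 0.09, adjusted p = 0.957). Uqcrfs1 differed by -0.25 (95% interval -0.56 to 0.07, adjusted p = 0.951).

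Among members with higher estimates, Ndufa8, an accessory subunit, had the smallest p, with 1724 and 2261 for PBS A and B and 2774, 2513 and 2735 for WT A, B and C, a difference of 0.23 (95% interval -0.06 to 0.51, adjusted p = 0.951). Ndufv1, which carries the FMN that takes electrons from NADH, had 2596 and 2421 for PBS A and B and 2956, 3152 and 3158 for WT A, B and C, a difference of 0.18 (95% interval -0.09 to 0.44, adjusted p = 0.974). Ndufs8 had 2866 and 5397 for PBS A and B and 4655, 4857 and 8095 for WT A, B and C; the PBS libraries themselves differed widely, and the difference, the largest of the higher estimates, was 0.38 (95% interval -0.19 to 0.96, adjusted p = 0.974). Cox6b1 and Uqcrh, the hinge protein of complex III, differed by 0.17 (95% interval -0.15 to 0.48, adjusted p = 0.974) and 0.15 (95% interval -0.19 to 0.49, adjusted p = 0.975). Members with all WT libraries below PBS numbered 14 of 76, against 10.1% of all genes: Ndufa5, Ndufa10, Ndufa12, Ndufb2, Ndufb4, Ndufb8, Ndufs5, Ndufs6, Ndufv3, Uqcrc1, Uqcrc2, Atp5b, Atp5md and Atp5pb. Those above were Ndufa8, Ndufs1 and Ndufv1, 3 of 76, against 9.25%.

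In microglia, knockout exosomes were compared with WT exosomes. Libraries were not paired by letter in this fit, so its intervals include the spread between letters. None of 76 passed (0% of all genes did) and 0 had an unadjusted p under 0.05, against 3.1% of all genes. Estimates were higher for 44 and lower for 32, with a median of 0.021 beside -0.004 for all genes, which became 0.067 without WT C and -0.013 without KO2 C. None of the 76 was without overlap in either direction, against 0.931% of all genes higher and 0.868% lower. Ndufa12 differed by 0.21 (95% interval -0.04 to 0.46, adjusted p = 1). Sdhc, a membrane anchor of succinate dehydrogenase, differed by 0.16 (95% interval -0.05 to 0.37, adjusted p = 1), and Uqcrc2, the other core protein of complex III, by 0.23 (95% interval -0.07 to 0.52, adjusted p = 1). On the negative side Uqcrh differed by -0.19 (95% interval -0.46 to 0.07, adjusted p = 1) and Atp5d by -0.14 (95% interval -0.39 to 0.11, adjusted p = 1).

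Against PBS, knockout exosomes gave 31 members with higher and 45 with lower estimates in microglia, with a median of -0.025 beside -0.004 for all genes. None passed, against 0.0126% of all genes, and 0 had an unadjusted p under 0.05, against 5.07%. Ndufa10 was the 1 member with all knockout libraries below PBS, against 3.75% of all genes, with 4334, 3990 and 3912 for KO1 A, B and C and 3676, 3561 and 4154 for KO2 A, B and C. Its difference was -0.24 (95% interval -0.49 to 0.00, adjusted p = 0.951). None of the 76 tested members was above PBS without overlap, against 3.69% of all genes. Ndufa3 differed by -0.18 (95% interval -0.43 to 0.06, adjusted p = 0.951), Ndufc2 by 0.15 (95% interval -0.11 to 0.42, adjusted p = 0.951) and Ndufa9 by 0.18 (95% interval -0.12 to 0.48, adjusted p = 0.951).

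The microglia exosome libraries were also compared by letter. This comparison was added after the values had been seen. Libraries lettered C were set against those lettered A and B, among the 9 exosome libraries, with the exosome group as a term. Ndufs8 passed the test, 1 of 76 members, against 0.906% of all genes. Its counts in the C libraries were 8095, 7426 and 7011 (WT, KO1 and KO2), against 4461 to 5656 in the 6 A and B libraries, a difference of 0.52 (95% interval 0.30 to 0.74, adjusted p = 0.046). Its PBS libraries, given above, lay below all C libraries and did not exceed the range of A and B. The call ended when any 1 exosome library other than KO1 B was left out, with adjusted p between 0.0814 and 0.392.

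Estimates were higher in C for 59 of 76 members, with a median of 0.10 beside 0.005 for all genes, of which 51.1% were higher. An unadjusted p under 0.05 was reached by 15 of 76 members, all higher in C. Among all 7948 genes 904 reached it in either direction (11.4%), 356 of them higher in C. All 3 C libraries lay above all 6 A and B libraries in 12 of 76 members, against 3.02% of all genes, and below in 0, against 4.19%. They included Ndufa2, Ndufb7, Ndufs8 and Ndufv2 of complex I, Uqcrc1 and Uqcrq of complex III, Cox4i1, Cox6a1 and Cox6a2 of complex IV, and Atp5g1 and Atp5l of complex V. Cox6a2 had the largest ratio, with 1516, 1490 and 1748 in C against 353 to 917 in A and B. That was a difference of 0.41 (95% interval 0.20 to 0.61, adjusted p = 0.0883). The PBS libraries, at 2164 and 1313, were on the side of C. Uqcrc1, at chr9:108936648-108949641, had 8793, 9392 and 9047 in C against 6252 to 7339 in A and B, and 9284 and 9104 in PBS. It differed by 0.35 (95% interval 0.14 to 0.55, adjusted p = 0.163). Uqcrq and Ndufv2 differed by 0.34 (95% interval 0.12 to 0.57, adjusted p = 0.215) and 0.33 (95% interval 0.11 to 0.56, adjusted p = 0.244). The PBS libraries of Uqcrq, at 5563 to 6397, lay above its A and B libraries (4422 to 5199). Those of Ndufv2, at 2300 to 2817, lay within A and B (1766 to 3180) and below C (3551 to 3941).

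Inflammatory genes also differed between these letters. Acod1, the itaconate-producing enzyme of activated macrophages, had 363 to 640 counts in the C libraries, 11220 to 26042 in the A and B exosome libraries and 1315 to 2785 in PBS. Il1b had 273 to 674, 4509 to 14902 and 2505 to 3651 in the same order, and Ptgs2 had 3824 to 4288, 19350 to 47575 and 9161 to 10280. Summed border-associated macrophage markers were 2485 to 3256 in the C libraries, 4674 to 9381 in A and B, and 2754 to 4810 in PBS. Of these markers only Pf4, Ms4a7 and Stab1 had at least 100 counts in every microglia library. Cd163 and Cbr2 were at 0 throughout, and Mrc1, Lyve1, F13a1 and Clec10a had a median of 0. Summed choroid plexus and ependymal markers were 8 to 51 in C and 64 to 12867 in A and B, and 9419 and 694 in PBS A and B. The part of these differences in the member values was not tested. PBS has no C library in this table. With all C libraries left out, WT exosomes minus PBS gave 21 members higher and 55 lower, at a median of -0.082, and knockout minus PBS gave 25 higher and 51 lower, at -0.061, with no member called in either.

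**Figure D4:**
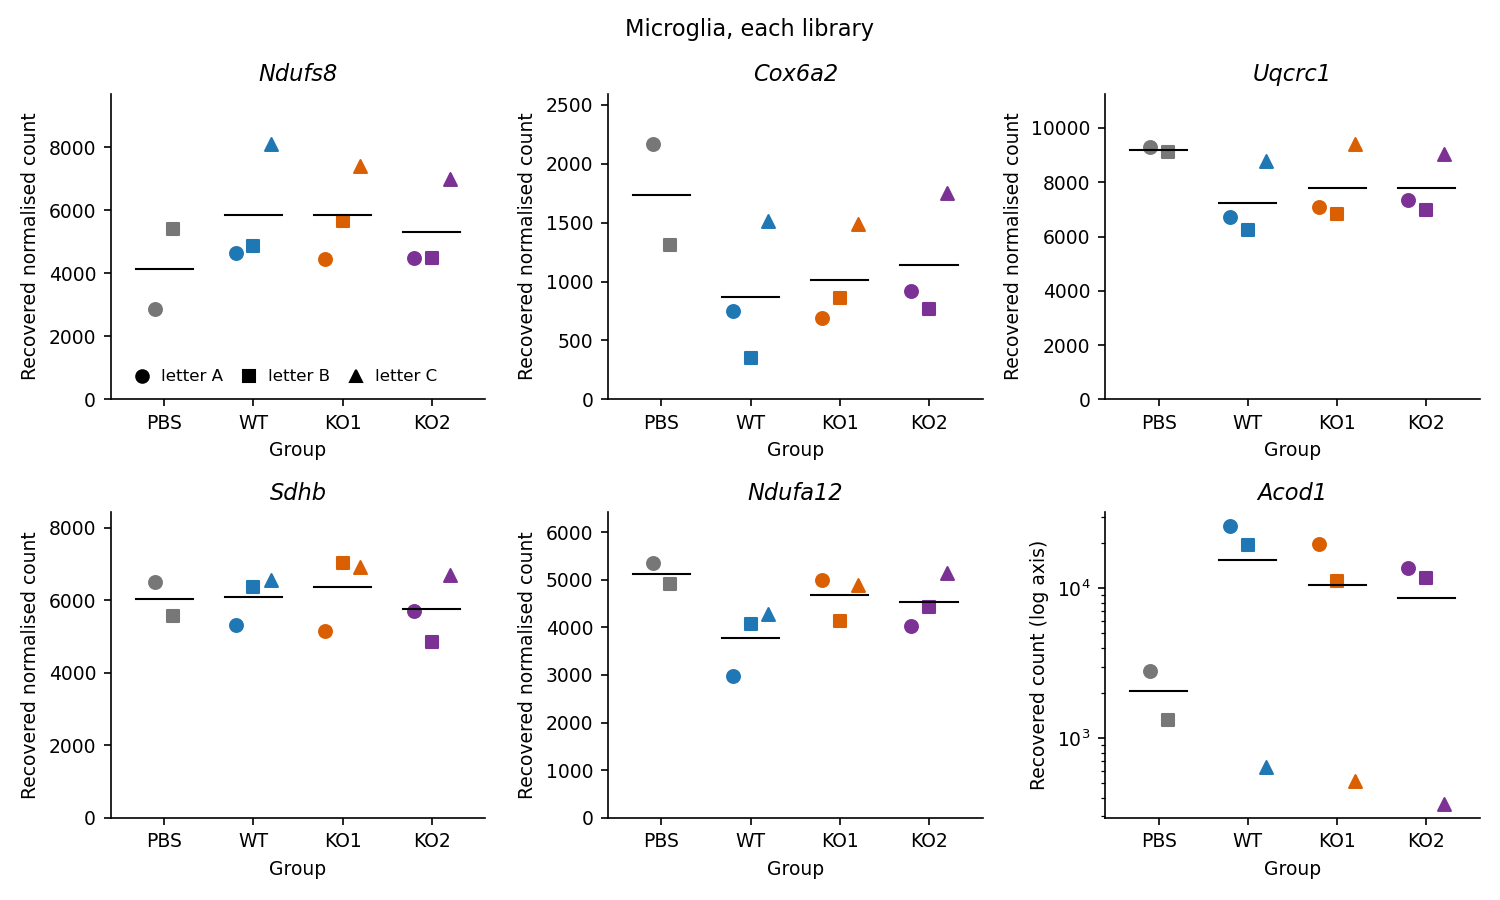
Recovered normalised counts (vertical axes; log axis for Acod1) of Ndufs8, Cox6a2, Uqcrc1, Sdhb, Ndufa12 and Acod1 in each microglia library, by group; symbols are libraries, shapes give the letter, lines are group means. In each exosome group the C library is highest for Ndufs8, Cox6a2 and Uqcrc1 and lowest for Acod1.

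In endothelial cells the same comparison found no member. There 37 members had higher and 39 lower estimates in C, with a median of -0.013 beside -0.002 for all genes. Endothelial WT had no C library, so WT A and B did not enter these estimates. They compare KO1 C with KO1 A and B, and KO2 C with KO2 B, and so rest on few libraries. None passed, against 0.107% of all genes, and 0 had an unadjusted p under 0.05, against 6.87%. Members without overlap numbered 3 above and 4 below, against 6.75% and 7.26% of all genes. Of the inflammatory genes named above, Ptgs2 was also lower in the endothelial C libraries, at 28966 to 33073 counts against 45257 to 71477 in A and B. Acod1 and Il1b overlapped, at 0 to 380 and 0 to 1712 in A and B and at or near 0 in C. Whether the difference between letters differs between the cell types was not tested.

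The authors' deposited table of genes from their own test listed 238 genes in microglia and 362 in endothelial cells. It held 2 members in microglia, Cox6a2 and Uqcrc1, and 0 in endothelial cells. The authors' test, named LRT (likelihood-ratio test), gave Cox6a2 an adjusted p of 0.0383 and Uqcrc1 an adjusted p of 0.0419. Beside these stood log2 fold changes of 0.495 (standard error 0.348) for Cox6a2 and 0.109 (standard error 0.11) for Uqcrc1. The groups behind the fold changes and the test are not named in the labels or headers. The adjusted p-values therefore cannot be read as tests of those fold changes or matched to a comparison above.

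Other genes of mitochondrial energy metabolism were counted in the same fits. Of the lists examined, no gene passed the adjusted test in any comparison of exosome groups or PBS. In endothelial WT minus PBS, estimates were higher for 13 of 18 TCA cycle genes (median 0.067), 45 of 76 mitochondrial ribosomal genes (0.034), 15 of 23 genes of mitochondrial protein import (0.041) and 20 of 36 assembly factors (0.010), and for 4 of 8 mitochondrial antioxidant genes (0.019). They were higher for 2 of 12 regulators of mitochondrial biogenesis (-0.114), the list with Nrf1, Gabpa and Tfam. Cytosolic ribosomal proteins, which have no part in respiration, were higher for 73 of 83 (0.063), beside 59 of 76 members. In microglia WT minus PBS, 3 of 18 TCA cycle genes (median -0.139), 39 of 75 mitochondrial ribosomal genes (0.007), 9 of 23 import genes (-0.044), 17 of 39 assembly factors (-0.023), 3 of 7 mitochondrial antioxidant genes (-0.061), 8 of 12 biogenesis regulators (0.035) and 19 of 83 cytosolic ribosomal proteins (-0.081) were higher. For the electron carriers and exchangers, which include Cycs and the ADP/ATP carriers, 11 of 18 were higher in endothelial cells (0.016) and 6 of 17 in microglia (-0.133).

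In the microglial comparison of letter C with A and B, estimates were higher for 16 of 18 TCA cycle genes (median 0.086), 18 of 23 import genes (0.123), 14 of 17 electron carriers (0.069), 47 of 75 mitochondrial ribosomal genes (0.031), 21 of 39 assembly factors (0.010), 5 of 7 antioxidant genes (0.058), 6 of 12 biogenesis regulators (-0.008) and 71 of 83 cytosolic ribosomal proteins (0.116). The 1 gene of these lists that passed was Sod2, the mitochondrial superoxide dismutase and a known inflammatory target, which was lower in C by a log2 difference of -1.39 (adjusted p = 0.000885), at 4891 to 6725 counts against 11772 to 22942. An unadjusted p under 0.05 was reached by 20 of the 83 cytosolic ribosomal proteins, all higher in C, beside 15 of 76 members. The protein genes of mitochondrial DNA were not analysed here, so the nuclear and mitochondrial parts of the complexes were not compared.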

How the data were processed

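RNA from sorted cells was sequenced, and the submitters' processing notes name FastQC 0.11.7, Trimmomatic 0.38, Salmon 0.10.0, DESeq2 1.18.1 and GRCm38.p6, with no role or order. Per the labels, the authors deposited for each cell type a table of variance-stabilised log2 values (20555 genes). A second pair of tables deposited by the authors lists genes of their own comparison, with a mean normalised count (signal), a log2 fold change, a test statistic (score) and p-values.

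Normalised counts were recovered from the log2 values: in endothelial cells by the closed inverse of the transform, which matched the authors' means for 362 genes, and in microglia by a monotone curve through 238 of the authors' means (largest held-out error 3.39%). Entrez gene IDs were matched to symbols in RefSeq (20537 of 20555); transcript lengths are GENCODE vM21 principal transcripts. Genes with a mean of at least 200 counts were tested with limma 3.58.1 (R 4.3.3, variance trend, 1 fit per cell type, Benjamini-Hochberg over all tested genes, two-sided). The scripts were also run on simulated data, with large changes in abundant genes and a spread per gene capped at the median. That run does not bear on differences as small as those of most members. This filter replaced that of 1 unit above the floor, under which 17 of 85 members remain in endothelial cells.

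Named genes are, per comparison, up to 5 members of smallest p in each direction, the most abundant member of each complex, isoform pairs, the Sdh genes, and members on 1 side in both cell types. The members, lists and rules were chosen with earlier results of these data known. Alternatives were other filters, scales, centring, fits and left-out libraries. Matching of letters between groups was checked: by the correlation of deviations from group means, a hint from the data and not the design, all 9 same-letter pairs of microglia exosome groups exceeded 0.1 (r of 0.111 to 0.45), so letters were taken as pairing microglial knockout and WT libraries, and the blocked fit changed no call there. Pairs with microglial PBS (0.004 to 0.105) and endothelial pairs (0.023 to 0.245) did not all pass. The differences, intervals and p-values between groups in the Results come from the fit without letters. Of the 24 samples, 3 were not analysed here, and a few genes that the rules named are not reported here.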

Additional observations from a re-analysis of the deposited data

Results flagged for a closer look

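In WT exosomes minus PBS, Ndufa12 and Ndufv3, accessory subunits of complex I, had every WT library on opposite sides of PBS in the 2 cell types. Ndufa12 was higher in endothelial cells, with 1923, 2655 and 1916 for PBS A, B and C and 2924 and 2826 for WT A and B, a difference of 0.10 log2 units. It was lower in microglia, with 5350 and 4901 for PBS A and B and 2970, 4061 and 4287 for WT A, B and C, a difference of -0.32. Ndufv3 was higher in endothelial cells, with 669, 1100 and 1002 for PBS A, B and C and 1193 and 1439 for WT A and B, a difference of 0.09. It was lower in microglia, with 1504 and 1490 for PBS A and B and 1104, 1202 and 1452 for WT A, B and C, a difference of -0.11. The cell types were normalised separately, so the difference between them was not tested, and none of these 4 differences passed the adjusted test within its cell type. In endothelial cells 17.4% of all genes were higher without overlap, and in microglia 10.1% were lower without overlap. The share of all genes on opposite sides in both cell types was not computed. Ndufb2 was lower without overlap in both. In endothelial cells 17.8% of all genes were lower without overlap, and the share lower in both cell types was not computed either.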

How the results depend on the processing

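In the 6 comparisons of groups, 0 members were called under every alternative run. Medians of the members changed sign only for knockout minus WT, on leaving out a library. Leaving out 1 library in turn, the median ranged in endothelial cells from 0.038 to 0.092 for WT minus PBS, from -0.05 to 0.007 for knockout minus WT and from 0.021 to 0.064 for knockout minus PBS, and in microglia from -0.082 to -0.032, from -0.013 to 0.067 and from -0.049 to 0. On the log2 scale of recovered counts, endothelial medians were larger: 0.264 with 50 added and 0.267 with 10 added for WT minus PBS, -0.082 and -0.083 for knockout minus WT, and 0.127 and 0.124 for knockout minus PBS. The median of all genes was then -0.097, -0.008 and -0.115 with 10 added. Leaving out WT B, KO1 B and KO2 B together, chosen after seeing the data, gave 0.038 for WT minus PBS. With the replicate block on letters, medians were 0.061, -0.016 and 0.032 in endothelial cells and -0.104, 0.021 and -0.054 in microglia, with 0 members called. In microglia the block raised the genes called from 0 to 27 for WT minus PBS and from 1 to 17 for knockout minus PBS, the members with an unadjusted p under 0.05 from 2 to 5 and from 0 to 3, and lowered the smallest adjusted p of a member from 0.951 to 0.156 and to 0.243. In endothelial cells it took the genes called from 1 to 0 for WT minus PBS and from 2 to 0 for knockout minus WT.

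Differences of single members turned sign on leaving out 1 library: Uqcr10 (-0.237 to 0.034) and Uqcrc1 (-0.341 to 0.083) in endothelial WT minus PBS and Uqcr10 in knockout minus WT (-0.022 to 0.249), each without WT A, and Ndufa9 in microglial knockout minus PBS (-0.014 to 0.366), without PBS B. Sdhd in endothelial knockout minus WT turned to -0.012 without the 3 B libraries. The cause was not tested. For microglial letter C minus A and B, the number of members called ranged from 0 to 1 and the median from 0.053 to 0.144 on leaving out 1 library, and the median was 0.182 and 0.18 on the count scales with 10 and 50 added. In endothelial cells that median ranged from -0.032 to 0.035, the highest without KO1 C. With 2 or 3 libraries a group, intervals on members are wide, and differences inside them were not detectable here.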

Other observations

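Ndufs5, a small accessory subunit of complex I, had isolated low libraries. It had 361 counts in endothelial PBS C and 570 in endothelial KO2 B, against 2092 to 3098 in the other 8 endothelial libraries, and 593 in microglial KO2 B, against 1675 to 4001 in the other 10. Ndufb11, also of complex I, ranged from 69.3 to 631 in endothelial cells and from 59.4 to 341 in microglia. Microglial PBS A and B had 72.2 and 90.5 and the 6 knockout libraries 132 to 341, without overlap. WT A, B and C had 224.2, 59.4 and 64.2, on both sides of PBS. Ndufb11 was below the filter in microglia, where 3.69% of the tested genes were higher without overlap in knockout minus PBS. Ndufab1, the mitochondrial acyl carrier protein, which also serves lipoic acid synthesis, was listed at 0 in endothelial KO1 A and at 190 to 672 in the other endothelial libraries.

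The genes outside the set whose deposited log2 values followed the mean of the tested members most closely across libraries included, in endothelial cells (10 libraries), Eif5a (r = 0.893), Rrp1 (0.882), Zfp764 (0.877) and Pla2g12a (0.874). In microglia (11 libraries) they were Hexa (r = 0.938), Bola2 (0.886), Hint1 (0.879), Cyb5r1 (0.871) and Cuta (0.867). These are descriptions across libraries that share normalisation and group, and the genes were picked as the highest among all tested.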
